A study of Mus musculus with 7 samples.

Results

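Cells passing an arterial endothelial gate were described in single-cell libraries of mouse hearts taken after sham surgery or myocardial infarction (MI). A cell was a member if it held at least 1 unique molecular identifier (UMI, a tag that counts 1 captured RNA) of Cdh5 and of Pecam1, none of Ptprc, Pdgfra, Prox1, Mmrn1 and Npr3, and at least 2 of the arterial markers Gja4, Gja5, Sox17 and Hey1. The gate kept 663 of 40158 cells, or of 3680 endothelial cells defined by the same gate without the arterial markers. The P1 hearts were of C57BL6/J mice, called wild type (WT) here, or of MerTK KO mice, whose strain background and deleted part of the gene are not given in the labels. The 8 week hearts were of C57BL6/J mice and no 8 week knockout was analysed here. Each age and genotype had sham and MI hearts, and WT P1 MI had 2 libraries where each other group had 1. Hearts were perfused and digested, red and dead cells were removed, and CD45+ cells were mixed with the remaining cells at 2 to 1, so the share of all cells that is endothelial was set in part by that mix. The labels give neither the time after surgery nor the number of hearts in a library.

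The gate left 51 members in the WT P1 sham, 36 and 396 in the WT P1 MI replicates 1 and 2, 31 in the Mertk KO P1 sham, 23 in the Mertk KO P1 MI, 121 in the WT 8 week sham and 5 in the WT 8 week MI. Only libraries with at least 20 members were compared, which leaves out WT 8 week MI and with it any comparison of MI between ages. The members of the 6 libraries used summed to between 554815 UMIs in the WT 8 week sham and 8874945 UMIs in the WT P1 MI replicate 2. No member barcode occurred as a member in another library. The 2 WT P1 MI libraries differed by more than counting noise, with a chi-square of 10.97 per degree of freedom over 12377 genes, and were kept as 2 samples. Nothing in the labels says that they came from separate litters or animals. The p-values for injury, genotype and their interaction thus measure the spread between these 2 libraries, which may be technical. The tests of age and of class by age also count as spread any difference in injury response between the genotypes. WT P1 MI replicate 2 as well as WT 8 week sham were processed with Cell Ranger 6.1.0 and the other libraries used with 4.0.0, per the file headers.

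Arteries are lined by endothelial cells that form under high Notch and SOXF signalling. Notch ligands such as Dll4 and Jag1 act on Notch receptors, the transcription factors Hey1 and Hey2 are Notch targets, and Sox17 is a SOXF factor placed upstream of Notch in arterial specification. Gja4 and Gja5 encode connexins 37 and 40, the gap junction proteins of arterial endothelium, and Gja5 marks larger and more mature coronary arteries. In the neonatal mouse heart, arterial endothelial cells can migrate along capillaries and reassemble into collateral arteries after infarction, a process that needs CXCL12 and its receptor CXCR4.

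The promoter windows of 3 arterial genes are shown because Gja5 splits the P1 members, Bmx and Cxcl12 differ with that split, and the gate itself rests on a SOX factor and on a Notch target. Windows run from 250 bases before to 50 bases after the RefSeq start (build GRCm38.p6), at chr3:97032152-97032451 on the plus strand for Gja5, at chrX:164258144-164258443 on the minus strand for Bmx, which encodes an endothelial tyrosine kinase of arteries, and at chr6:117168285-117168584 on the plus strand for Cxcl12. Capitals mark the letters ACAAAG, a SOX core, and TGGGAA, the core bound by the Notch partner RBPJ.
Gja5 promoter: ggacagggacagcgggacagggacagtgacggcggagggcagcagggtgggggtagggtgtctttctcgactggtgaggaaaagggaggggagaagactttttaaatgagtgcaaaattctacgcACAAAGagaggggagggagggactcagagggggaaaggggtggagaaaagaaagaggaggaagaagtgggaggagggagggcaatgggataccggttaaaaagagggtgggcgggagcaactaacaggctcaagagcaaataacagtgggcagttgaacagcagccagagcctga
Bmx promoter: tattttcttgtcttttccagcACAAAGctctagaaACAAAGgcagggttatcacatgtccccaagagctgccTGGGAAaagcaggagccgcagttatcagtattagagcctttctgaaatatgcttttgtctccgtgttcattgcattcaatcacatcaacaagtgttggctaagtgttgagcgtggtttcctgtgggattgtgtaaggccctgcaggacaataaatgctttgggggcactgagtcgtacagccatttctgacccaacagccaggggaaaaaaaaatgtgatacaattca
Cxcl12 promoter: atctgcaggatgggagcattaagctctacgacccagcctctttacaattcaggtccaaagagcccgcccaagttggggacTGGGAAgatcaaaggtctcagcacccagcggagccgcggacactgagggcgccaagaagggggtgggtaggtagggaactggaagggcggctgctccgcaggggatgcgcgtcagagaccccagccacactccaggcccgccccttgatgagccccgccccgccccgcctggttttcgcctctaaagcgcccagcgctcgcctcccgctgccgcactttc
On either strand, ACAAAG occurred in 18.7% and TGGGAA in 25.6% of all 32851 windows of this length. Of the 34 arterial genes looked up (the 4 gate markers and 30 others), 28 had a window, of which 4 held ACAAAG (Gja5, Bmx, Gkn3 and Dkk2) and 7 held TGGGAA (Bmx, Cxcl12, Hey2, Sema3g, Fbln5, Alox12 and Crip1).  These are matches of letters, not binding sites.

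Within the gate, the connexin that marks mature arteries was the rarest marker. Sox17 and Hey1 with neither connexin made up 251 members (37.9%), and Gja5 was detected in 129 of 663. All 4 markers were found in 88 members (13.3%). Gja5 was seen in 10 of 51 members in the WT P1 sham, 6 of 36 and 69 of 396 in the WT P1 MI replicates 1 and 2, 7 of 31 in the Mertk KO P1 sham, 3 of 23 in the Mertk KO P1 MI and 32 of 121 in the WT 8 week sham. Gja4 was detected in 31 of 51 WT P1 sham members. In the WT P1 MI replicates 1 and 2 it was seen in 16 of 36 and 235 of 396. Mertk KO P1 sham had 20 of 31, Mertk KO P1 MI 21 of 23 and WT 8 week sham 71 of 121. These are the values that chose the members and carry no test.

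The share of endothelial cells that were members was 26.2% (exact binomial 95% interval 20.1 to 32.9%) in the WT P1 sham, 30.3% and 23.4% in the WT P1 MI replicates, 19.5% in the Mertk KO P1 sham, 21.5% in the Mertk KO P1 MI and 8.79% (7.35 to 10.4%) in the WT 8 week sham. Depth moved with that share: members held a median of 16180 to 28140 UMIs in the P1 libraries and 3659 in the WT 8 week sham. Each endothelial cell was then thinned to 1500 UMIs and shallower cells were left out, 13 of 195 in the WT P1 sham and 220 of 1377 in the WT 8 week sham. The share of the remaining cells was 4.95% (2.29 to 9.18%) in the WT P1 sham, 5.45% and 5.09% in the WT P1 MI replicates, 5.73% in the Mertk KO P1 sham, 4.95% in the Mertk KO P1 MI and 6.05% in the WT 8 week sham. Among the cells left at equal depth the 8 week share was no lower than any P1 share, and the effect of the uneven loss of shallow cells was not tested. The intervals cover counting error only.

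**Figure D1:**
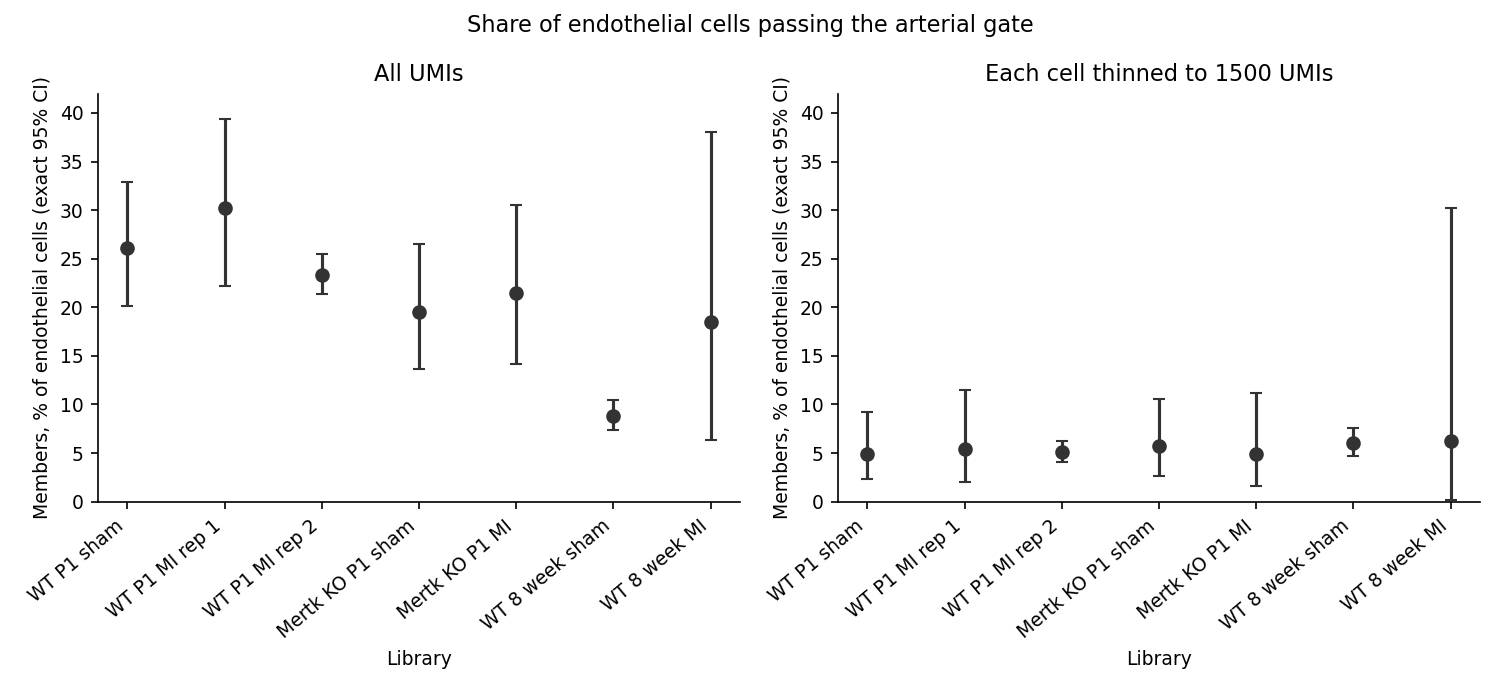
Members as a percentage of the endothelial cells of each library, with exact binomial 95% intervals, at the depth sequenced (left) and with each cell thinned to 1500 UMIs and shallower cells left out (right). The left panel shows 8.79% in the WT 8 week sham against 19.5 to 30.3% in the P1 libraries, and the right panel shows 4.95 to 6.25% in every library.

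The label was checked against 30 arterial identity genes that the gate did not use, among them Jag1, Efnb2, Bmx, Sema3g, Cxcl12 and the elastic fibre genes Eln and Fbln5. Levels are given as CPM, the UMIs of a gene per 1000000 UMIs of the cells summed within a library. In WT P1 sham the summed level of the 30 genes was 3211 CPM in endothelial cells with no marker, 3679 with 1, 4449 with 2, 7874 with 3 and 16700 with all 4. In WT 8 week sham it was 6477, 8626, 18380, 18490 and 16570 CPM. At 8 weeks, cells just inside the gate already held the level of 4-marker cells. In the P1 libraries, cells with 2 markers held 2941 to 4517 CPM, close to the 3211 to 3988 CPM of endothelial cells with none. Genes of mural cells, described below, were also higher in cells with 2 or more markers than in cells with none. With 0 to 4 markers, 12 mural genes summed to 157, 98.6, 1712, 549 and 5299 CPM in WT P1 sham. In WT 8 week sham they summed to 30.0, 362, 3467, 5017 and 5059 CPM. The knockout libraries did not rise up to 4 markers. Mertk KO P1 sham had 1484 CPM with 3 markers and 182 CPM with 4, and Mertk KO P1 MI 817 and 233 CPM. The 2-marker cells made up 303 of the 537 P1 members. By the sum of the 30 genes, the name arterial endothelial cell holds for the 8 week members and for the P1 members with all 4 markers. It does not hold for most P1 members, which are called arterial-gate cells here. P1 cells with 3 markers lay between, at 4247 to 7874 CPM. Single genes differed from the sum. In P1 cells with 2 markers Cxcl12 was at 258 to 778 CPM, against 50.6 to 153 CPM with none. Eln went the other way in the P1 libraries, at 4.23 to 137 against 14.1 to 225 CPM. In WT P1 MI replicate 1 there was hardly a difference, with 13.1 against 14.1 CPM on 8 and 5 UMIs.

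**Figure D2:**
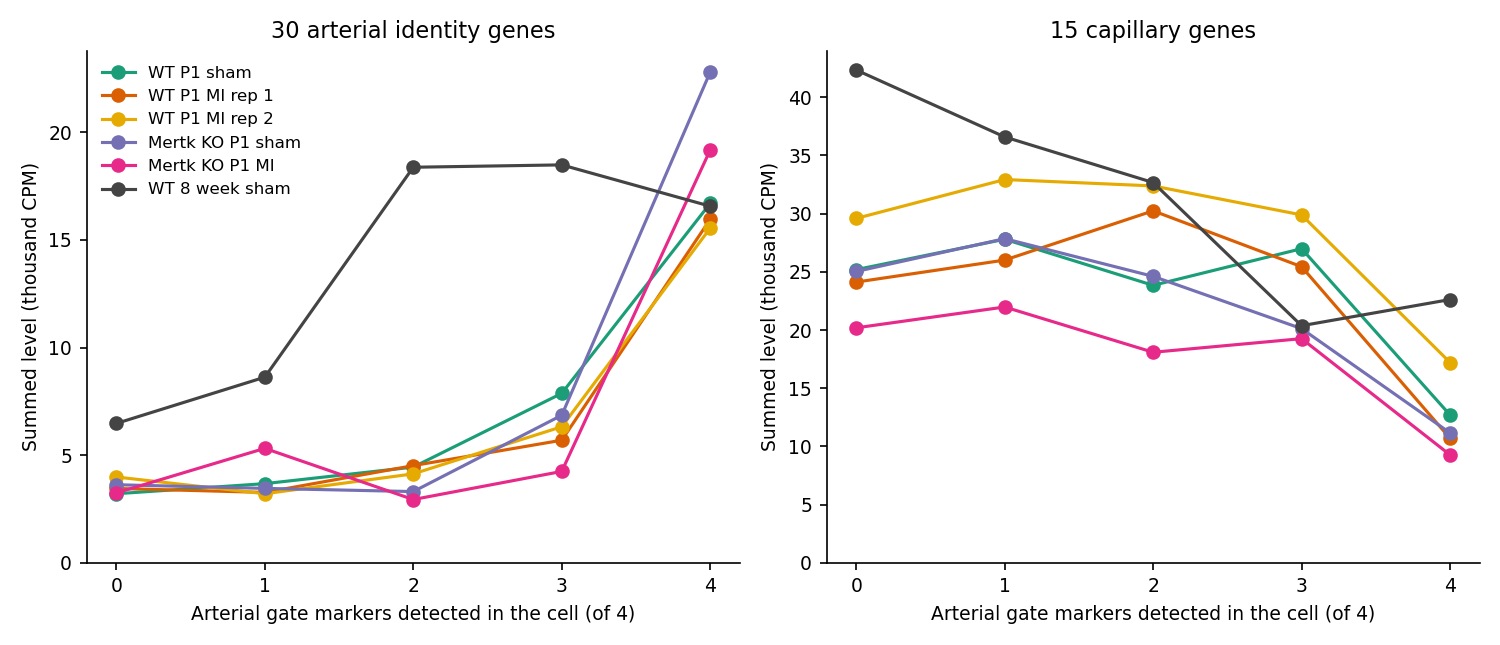
Summed level (CPM, in units of 1000) of 30 arterial identity genes (left) and 15 capillary genes (right) in endothelial cells with 0 to 4 gate markers detected, 1 line per library; members have 2 or more. Arterial identity genes reach 18380 CPM at 2 markers in the WT 8 week sham, while the 5 P1 libraries stay at 2941 to 4517 CPM there and reach 15550 to 22800 CPM at 4 markers.

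Members with a Gja5 UMI carried the arterial genes at P1. This split was chosen after the values were seen and is a description. Fbln5, an elastic fibre protein, was at 702 CPM in the 10 WT P1 sham members with Gja5 and at 11.4 CPM in the 41 without. It was at 517 against 17.4 CPM in the WT P1 MI replicate 1, 568 against 23.4 in replicate 2, 464 against 27.7 in the Mertk KO P1 sham and 621 against 16.7 in the Mertk KO P1 MI. In WT 8 week sham it was at 728 CPM with Gja5 and 341 CPM without. Every P1 library thus separated its members, and the 8 week library much less. Eln, which encodes tropoelastin, was at 945 to 2462 CPM with Gja5 in the 5 P1 libraries and at 6.60 to 25.3 CPM without. Much of it lay in single cells. Of the Eln UMIs of all members, 1 cell held 78.8% in the WT P1 sham and 43.2% and 29.4% in the WT P1 MI replicates. In the Mertk KO P1 sham 1 cell held 98.0%, and in the Mertk KO P1 MI 64.3%.

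The Notch ligand Jag1 was at 189 to 285 CPM in P1 members with Gja5 and at 14.5 to 26.4 CPM in those without, while in the WT 8 week sham it was at 154 and 147 CPM. Sema3g, an arterial semaphorin, was at 154 to 351 CPM against 8.72 to 16.7 CPM at P1, and at 438 against 235 CPM at 8 weeks. Bmx was at 50.5 to 164 CPM against 1.32 to 7.61 CPM at P1. Dll4, the ligand of the arterial and tip cell program, separated less, at 81.0 to 156 CPM against 27.4 to 107 CPM. Cxcl12, the chemokine of collateral formation, was at 2265 to 6911 CPM with Gja5 and 554 to 1011 CPM without at P1. Its order turned at 8 weeks, with 1646 CPM in members with Gja5 and 4160 CPM in those without.

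Of 26 arterial identity genes measured, 23 were higher with Gja5 in all 5 P1 libraries and 14 at least 2-fold, beside 727 and 103 of 3613 genes measured. Capillary genes went the other way. Of 14 measured, 10 were lower with Gja5 in all 5 P1 libraries and 4 at least 2-fold, beside 437 and 38 of the 3613 genes. Car4, a capillary carbonic anhydrase, was at 0 to 59.0 CPM with Gja5 and 168 to 257 CPM without. Aplnr, the apelin receptor of capillary and venous endothelium, was at 0 to 29.9 CPM with Gja5 and 126 to 295 CPM without. Of 13 cell cycle genes, 8 were lower with Gja5 in all 5 libraries, beside the same 437 of 3613, and Top2a, a mitotic topoisomerase, had 0 to 49.6 CPM against 113 to 222 CPM in 4 of the P1 libraries, but 135 against 120.2 CPM in the Mertk KO P1 MI. Median UMIs were 12640 with Gja5 and 19900 without in the WT P1 sham, 39940 and 25120 in the WT P1 MI replicate 1, 14080 and 16810 in replicate 2, 11720 and 16990 in the Mertk KO P1 sham, and 10620 and 21970 in the Mertk KO P1 MI. In the WT 8 week sham they were 6142 and 3383, so members with Gja5 were the deeper ones there and in replicate 1 only. Gja5 members numbered only 3 in the Mertk KO P1 MI.

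**Figure D3:**
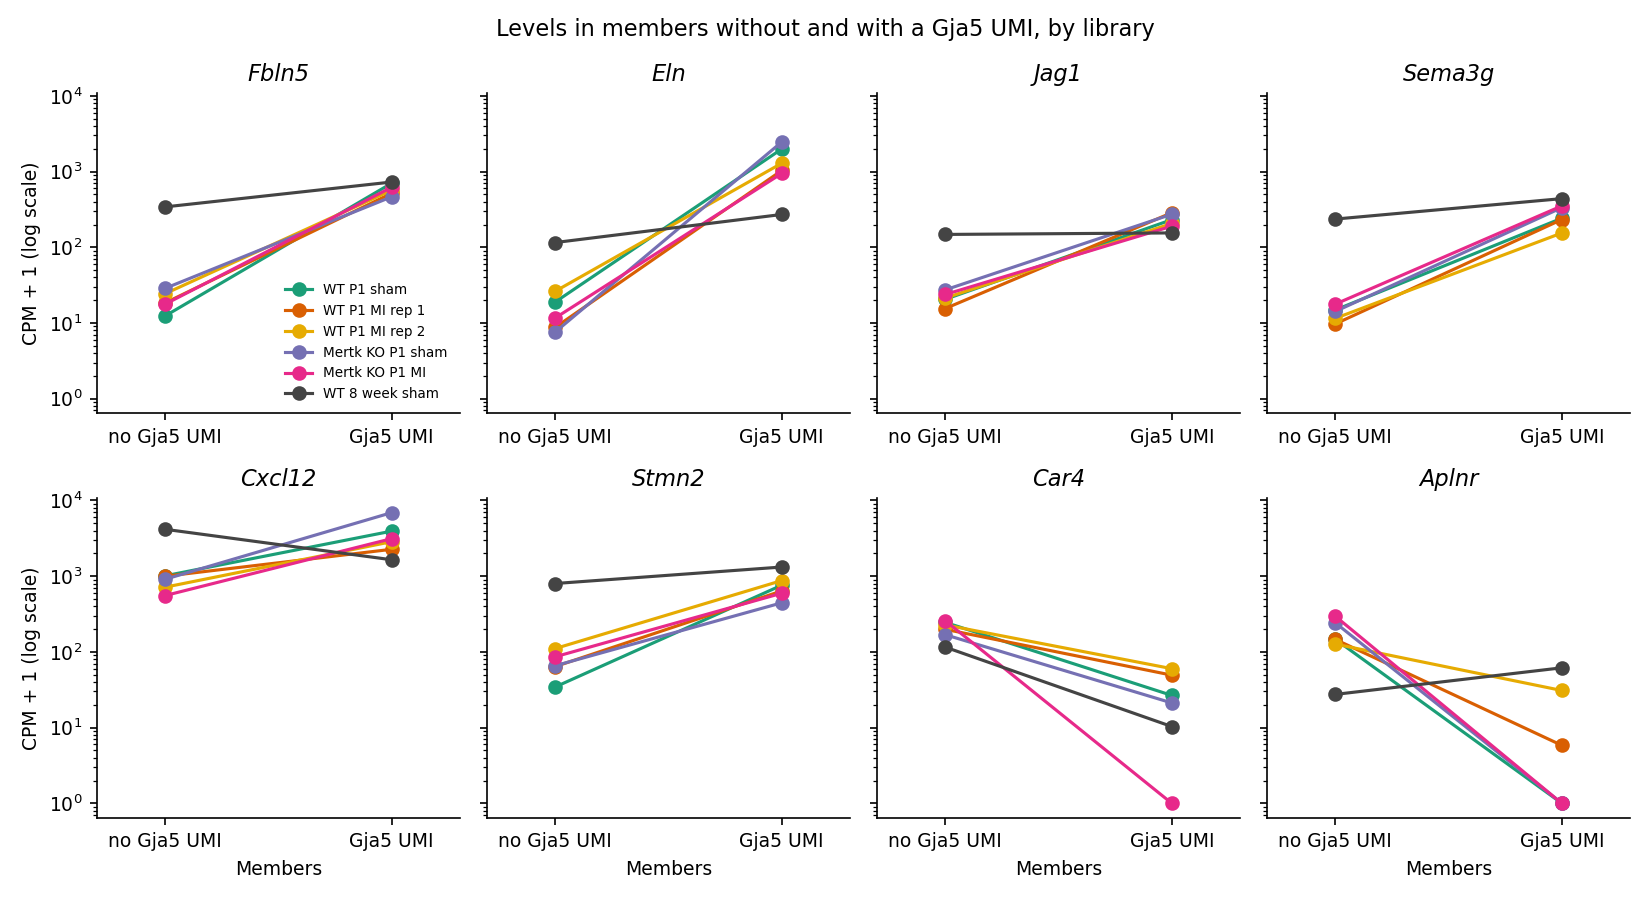
CPM plus 1 (log axis) of 8 genes in members without and with a Gja5 UMI, 1 line per library; points at the bottom are at 0 UMIs. In the 5 P1 libraries Fbln5, Eln, Jag1, Sema3g, Cxcl12 and Stmn2 are higher with Gja5 and Car4 and Aplnr lower, while the WT 8 week sham line is flatter for Jag1 (147 and 154 CPM) and turns for Cxcl12 (4160 and 1646 CPM).

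Members also held RNA of mural cells, the pericytes and smooth muscle cells that wrap vessels. Rgs5, a pericyte marker, was at 953 CPM in the WT P1 sham members, 930 and 862 CPM in the WT P1 MI replicates, 385 in the Mertk KO P1 sham, 238 in the Mertk KO P1 MI and 1876 in the WT 8 week sham. Endothelial cells without a marker had 2.81 to 103 CPM. An Rgs5 UMI was present in 21 of 51, 18 of 36, 191 of 396, 10 of 31, 7 of 23 and 30 of 121 members in that order. The whole list of 12 mural genes summed to 667 to 1767 CPM in P1 members and 4301 CPM in the WT 8 week sham members. Mural RNA was higher in 4-marker cells, as the arterial genes were: there the 12 genes summed to 5299 CPM in the WT P1 sham, 6206 and 2840 CPM in the WT P1 MI replicates and 5059 CPM in the WT 8 week sham, and in cells without a marker to 157, 53.4, 233 and 30.0 CPM. In 4-marker cells of the knockout it was 182 CPM in the sham and 233 CPM after MI. Of 10 mural genes measured by Gja5 at P1, the median log2 ratio of members with to members without Gja5 was 1.28. The part of mural RNA in the arterial gradient was not tested. In the 7 members of Mertk KO P1 sham with Gja5, Rgs5, Myh11, Tagln and Pdgfrb were at 0 UMIs while Eln was at 2462 and Fbln5 at 464 CPM. Of the Eln UMIs of all members of that library, 98.0% lay in 1 cell. Removal of the highest doublet scores took 61 members.

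Against endothelial cells of the same library with no arterial marker, members had higher arterial genes and higher mural genes. The gate chose the members from these counts, so the ratios are descriptions. Members were also deeper, with medians of 16180 to 28140 UMIs against 4554 to 7670 in the other cells of the P1 libraries. In WT 8 week sham the medians were 3659 and 2414 UMIs. The part of depth in the ratios was not tested. Of 3423 genes at 50 CPM or more, 83 were at least 2-fold higher at the median with the same sign in all 6 libraries (2.42%) and 17 lower (0.497%). Of 23 arterial identity genes measured, 10 were among the higher ones and none among the lower ones. Fbln5 led them with a median log2 ratio of 4.99, followed by Sema3g at 4.02, Cxcl12 at 3.68 and Jag1 at 2.59. All 8 mural genes measured were also higher, with Notch3, the mural Notch receptor, at 4.82 and Rgs5 at 4.65. The largest median ratios belonged to Higd1b (5.38), Ndufa4l2 (5.23) and Pdgfrb (5.22), the last the pericyte growth factor receptor. Colec11 (4.76), the smooth muscle gene Tagln (4.61), Gucy1a1 (4.34), the imprinted RNA Meg3 (4.10) and Tpm2 (4.03) completed the 12 highest.

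Among the lowest ratios were those of Igf1 (-2.33), Stxbp6 (-1.91) and Ptgs1 (-1.83), which encodes cyclooxygenase 1. Aplnr (-1.54), Calcrl (-1.43), the fenestral diaphragm gene Plvap (-1.39) and Hmcn1 (-1.29) were lower too. Of 16 immediate early and dissociation stress genes, 10 were higher in members in all 6 libraries with a median ratio of at least 2-fold, with Fos at a median log2 ratio of 1.91 and Junb at 1.80. Their part in the other ratios was not tested.

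The question of age was addressed by setting the 5 P1 libraries against WT 8 week sham in an additive fit of age, injury and genotype (edgeR's quasi-likelihood test, Benjamini-Hochberg adjustment over 9651 genes, 2 residual degrees of freedom). P1 members had higher proliferation, imprinted growth and basement membrane genes, and 8 week members had higher antigen presentation and interferon genes. With an adjusted p under 0.05 and at least a 2-fold difference, 316 genes were higher at P1 (3.27%) and 310 lower (3.21%), 6.49% in all. In 586 of the 626, the 8 week value lay outside all 5 P1 values on the called side, beside 57.5% of all genes tested whose 8 week value lay outside on either side. With 1 library at 8 weeks, age cannot be told apart from anything else particular to that library, its depth included. These shifts were not particular to members. In endothelial cells with no marker, MHC class I and interferon genes summed to 3968 to 6232 CPM at P1 and 18770 CPM at 8 weeks. There the cell cycle genes summed to 2739 to 3089 against 1179 CPM and the imprinted genes to 1266 to 2503 against 716 CPM. Elastic fibre and basement membrane genes summed to 10770 to 15990 against 8446 CPM. Between the 2 libraries processed with Cell Ranger 6.1.0, WT P1 MI replicate 2 as well as WT 8 week sham, 625 of the 626 had the same sign. WT 8 week sham is the only 8 week library used and both were in the fit. This is therefore no separate check of the version.

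H19, an imprinted RNA of fetal growth, was at 251 CPM in the WT P1 sham, 250.2 and 242 in the WT P1 MI replicates, 440 in the Mertk KO P1 sham and 213 in the Mertk KO P1 MI. No H19 UMI was seen among the 554815 UMIs of WT 8 week sham members, which makes H19 at least 51.7-fold higher at P1 against a floor of 3 UMIs over that library (adjusted p = 1.8e-05, edgeR). Mest, another imprinted gene, was at 385 to 793 CPM at P1 and 16.2 CPM at 8 weeks (log2 difference 5.37, approximate SE 0.57). The growth factor Igf2 was at 180 to 605 CPM against 90.1 CPM (log2 2.84), and Meg3 at 83.5 to 126 CPM against 10.8 CPM (log2 3.54). The regulator of imprinted genes Plagl1 was also at 0 UMIs at 8 weeks and at least 9.07-fold higher at P1. Of 12 imprinted fetal growth genes tested, 6 rose at P1 and none fell, with a median log2 difference of 2.81 (2.15 with the genes at 0 set to their bound), beside 0.02 for all genes. In cells with all 4 markers, 2 of 8 were called, both higher at P1.

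Antigen presentation differed in the other direction. Ly6a, an interferon-responsive surface antigen, was at 335 to 572 CPM at P1 and 3850 CPM at 8 weeks (log2 difference -3.34, approximate SE 0.38). Ifit1, an interferon-induced RNA-binding protein, was at 0 to 7.44 CPM against 106 CPM (log2 -7.02), and Ifit3 at 0 to 2.11 CPM against 103 CPM (log2 -5.82). Of 21 MHC class I and interferon genes, 17 were lower at P1 and none higher, with a median log2 difference of -2.21. Among cells with all 4 markers 9 of 20 were called, all lower at P1, at a median of -2.21, and without WT P1 sham 6 of 21 were. Of 6 MHC class II genes, 4 were lower at P1. H2-Aa was at 0 to 4.03 CPM at P1 and 137 CPM at 8 weeks, H2-Ab1 at 0.70 to 5.65 against 110 CPM, and Cd74, the invariant chain, at 0 to 10.6 against 355 CPM. Cd74 had a log2 difference of -5.76. Without WT P1 sham the fit gave 0.82, though Cd74 in every P1 library was below the 8 week value. That fit sets the WT P1 sham level from the other P1 libraries, and Mertk KO P1 MI had 0 Cd74 UMIs. Leukocyte genes moved the same way: 7 of 9 tested were lower at P1, and the B cell gene Cd79a was at 48.7 CPM at 8 weeks and at 0 to 2.70 CPM at P1. Their part in the MHC difference was not tested.

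Proliferation genes were higher at P1. Top2a was at 122 CPM in the WT P1 sham, 95.2 and 156 in the WT P1 MI replicates, 196 in the Mertk KO P1 sham, 121 in the Mertk KO P1 MI and 3.60 in the WT 8 week sham (log2 difference 5.30, approximate SE 0.73). Of 21 cell cycle genes, 12 were called, all higher at P1, with a median log2 difference of 3.23 (3.05 with genes at 0 set to their bound). Cenpf, a kinetochore protein, had a log2 difference of 4.63, and the kinetochore motor Cenpe was at 0 UMIs at 8 weeks and at least 8.26-fold higher at P1. The histone gene Hist1h1b (log2 5.78) and the spindle midzone gene Prc1 (5.84) were called too. In 4-marker cells only 5 cell cycle genes could be tested, and in the P1 members the cell cycle genes lay mostly in those without Gja5, as above.

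Basement membrane genes rose with them. Of 28 elastic fibre and basement membrane genes, 11 were higher at P1 and 1 lower, with a median log2 difference of 1.18. Nid2, a nidogen, was at 69.1 to 159 CPM against 23.4 CPM (log2 2.84), the laminin chain Lamb1 at 169 to 260 CPM against 45.1 CPM (log2 2.38) and Lama4 at 206 to 472 CPM against 86.5 CPM (log2 2.31). Adamts4, a protease of matrix proteoglycans, was at 124 to 242 CPM against 3.60 CPM (log2 6.18). Apln, the ligand of Aplnr and a tip cell gene, was at 54.7 to 168 CPM at P1 and at 0 UMIs at 8 weeks, at least 18.7-fold higher. The transcription factor Sox11 and the circadian deadenylase gene Noct were likewise at 0 UMIs at 8 weeks and at least 11.1-fold and 19.9-fold higher at P1, as was Cdca8, a chromosomal passenger protein, at least 9.66-fold. Aplnr itself was at 112 to 279 CPM against 39.6 CPM (log2 1.54). The tight junction gene Cldn5 was at 619 to 1573 CPM against 501 CPM (log2 1.90). Angptl4, an inhibitor of lipoprotein lipase, had a log2 difference of 3.27 and the fatty acid carrier Fabp5 one of 1.77.

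Among genes lower at P1 outside those lists, Cytl1 was at 0 to 1.46 CPM against 227 CPM (log2 difference -7.65), Xdh, which encodes xanthine dehydrogenase, at 0 to 11.5 CPM against 123 CPM (-9.11), Sncg at 1.17 to 14.4 CPM against 189 CPM (-6.82) and Nepn at 1.17 to 4.03 CPM against 99.1 CPM (-5.92). The 126 Cytl1 UMIs of the WT 8 week sham came from 3 of its 121 members, with 53.2% in 1 cell. Cytl1 was listed beforehand as an endocardial gene. The MHC genes H2-Q6 (-6.92) and H2-Eb1 (-6.07) were also among the calls. The BMP targets Id1 (log2 -2.08) and Id3 (-1.61), the receptor Acvrl1 (-1.85) and the inhibitor Smad7 (-1.54) were lower at P1, 4 of 17 genes of TGF beta and BMP signalling, with none higher. The efferocytosis receptor Mertk was at 7.32 to 20.2 CPM at P1 and 64.9 CPM at 8 weeks (log2 -2.35, adjusted p = 0.021, edgeR), and its bridging ligand Gas6 at 27.4 to 58.1 against 231 CPM (log2 -2.22). The thromboxane receptor gene Tbxa2r was at 25.0 to 33.9 against 103 CPM (log2 -1.81).

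RNA of other cell types moved with age in the same members. All 8 cardiomyocyte genes tested were higher at P1, among them Tnnt2 at 37.5 to 174 CPM against 27.0 CPM (log2 difference 2.94) and Myh6 at 10.7 to 57.0 against 1.80 CPM (log2 5.03). Of 11 mural genes, 3 were lower at P1, with Tagln at 16.3 to 112 against 757 CPM, Acta2 at 79.4 to 225 against 797 CPM and Myl9 at 36.0 to 86.0 against 323 CPM. The part of these cell types in the other age differences was not tested. In members without a UMI of Col1a1, Lyz2, Rgs5 or Tnnt2, 30 genes were higher at P1 and 31 lower among 3582 tested.

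Arterial identity genes were lower at P1 under the gate as given, and this depended on the gate. Of 29 tested, 11 were lower at P1 and 1 higher, with a median log2 difference of -1.17. Clu, a secreted chaperone, was at 38.7 CPM in the WT P1 sham, 58.9 and 85.9 in the WT P1 MI replicates, 19.8 in the Mertk KO P1 sham, 83.5 in the Mertk KO P1 MI and 368 in the WT 8 week sham (log2 -3.50, approximate SE 0.40). Edn1, the vasoconstrictor endothelin, was at 21.1 to 85.0 against 144 CPM (log2 -3.23), Stmn2 at 109 to 219 against 1000 CPM (-2.77), Sema3g at 31.0 to 50.2 against 314 CPM (-2.72) and Mgp, an inhibitor of calcification, at 169 to 418 against 2617 CPM (-2.71). Fbln5 (-2.04), Crip1 (-1.85), Tm4sf1 (-1.84), the lymphangiogenic factor Vegfc (-1.83), Alox12 (-1.62) and Jag1 (-1.38) were the others. Unc5b, a netrin receptor, was the 1 called higher at P1 (log2 1.63, adjusted p = 0.044, edgeR), with its 8 week value of 88.3 CPM above the 83.5 CPM of Mertk KO P1 MI. Total UMI scaling ended that call.

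With the gate set at all 4 markers, a choice made after the data were seen, none of 27 arterial identity genes was lower at P1 and 1 was higher, at a median of -0.23, where 77 of all 4163 genes were called. With the gate applied after thinning to 3000 UMIs, also chosen afterwards, 1 of 20 was lower and 2 higher, at a median of 0.41, where 42 of all 1219 genes were called. Jag1 then had log2 differences of 1.17 and 0.92 in place of -1.38, and Stmn2 of -0.69 and -1.28 in place of -2.77. Fbln5 turned to 0.32 after thinning. In members without a UMI of Col1a1, Lyz2, Rgs5 or Tnnt2 the median was 0.29, with 1 of 26 lower and 2 higher, and Mgp turned to 0.54, Jag1 to 0.54, Fbln5 to 0.41 and Stmn2 to 0.024. No difference passed the test for Dll4 (log2 0.20), Notch1 (0.21), Notch4 (-0.14), Jag2 (-0.91), Efnb2 (0.44), Nrp1 (0.34), Cxcl12 (-0.90), Bmx (-1.17), Eln (1.20), Ltbp4 (0.10), Mecom (-0.20), Fbln2 (-0.83), Igfbp3 (-0.72), Bmp4 (-0.27), Cxcr4 (-1.20), Gkn3 (-2.06) and Hey2 (-2.32).

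**Figure D4:**
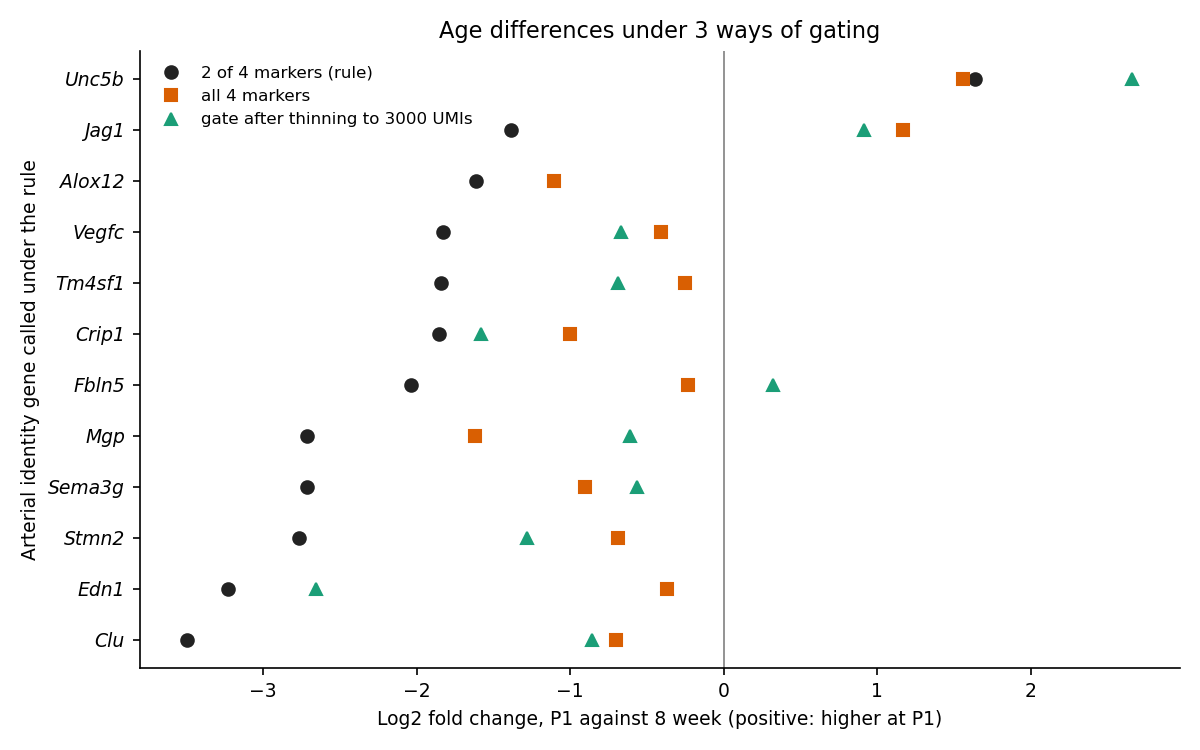
Log2 fold change of P1 against 8 week (positive: higher at P1) for the 12 arterial identity genes called under the gate of at least 2 markers, with the same genes under a gate of all 4 markers and under a gate applied after thinning each cell to 3000 UMIs. Jag1 moves from -1.38 to 1.17 and 0.92, Stmn2 from -2.77 to -0.69 and -1.28, and Unc5b stays positive; Alox12 has no value after thinning.

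The age difference was then compared between members and endothelial cells with no marker. Library was a block and class by age the tested term (edgeR's quasi-likelihood test, 9660 genes, 2 residual degrees of freedom). The P1 side was again the fitted WT sham level. Members were deeper than the cells with no marker in each library, as above, and the part of depth was not tested. For 84 genes the ratio of members to other endothelial cells was higher at P1 (0.87%) and for 30 lower (0.311%). Cxcl12 was at 691 to 1605 CPM in P1 members and 50.6 to 153 CPM in the other cells, and at 3188 and 1599 CPM at 8 weeks (log2 difference of ratios 2.85, approximate SE 0.28, adjusted p = 5.8e-13). Cxcl12 is thus high in both classes at 8 weeks and in members at P1. Aqp1, a water channel of capillaries, was at 167 to 345 against 273 to 540 CPM at P1, and at 126 against 1690 CPM at 8 weeks (log2 3.02). Stmn2 was at 109 to 219 against 28.7 to 121 CPM at P1 and at 1000 against 131 CPM at 8 weeks (log2 -1.67), which became 0.51 with all 4 markers and 0.20 after thinning. Fbln2, an elastic fibre gene, gave -1.52, and 0.97 after thinning. Igf2 was at 180 to 605 against 257 to 568 CPM at P1 and at 90.1 against 5.85 CPM at 8 weeks (log2 -3.75). Of 11 mural genes 5 had a lower ratio at P1 and none a higher one, including Rgs5 (log2 -3.52) and Acta2 (-4.00), and their part in the other differences of ratio was not tested.

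The injury comparison set the 2 WT P1 MI libraries against WT P1 sham in a fit of 5 groups (edgeR's quasi-likelihood test, 9651 genes, 1 residual degree of freedom, shared over the groups). Members differed little: 10 genes were higher after MI (0.104%) and 6 lower (0.0622%), 0.166% in all. DESeq2 called 0, with 9 genes at an unadjusted p under 0.05 beside 269 by edgeR. No arterial identity, Notch pathway or CXCL12 axis gene was called. Of those lists Cxcl12 was at 1412 CPM in the WT P1 sham and 1209 and 1021 CPM after MI (log2 difference -0.34, approximate SE 0.42). Cxcr4 was at 11.3 CPM against 8.88 and 13.4 CPM (log2 0.10), Dll4 at 113 against 89.6 and 97.9 CPM (-0.26), Efnb2 at 231 against 215 and 144 CPM (-0.38), and Vegfc at 56.3 against 102 and 72.1 CPM (0.61). None of these passed the test. The absence of a call here does not show that levels were equal.

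Lower after MI were Pdlim3, a muscle LIM protein, at 76.7 CPM in sham against 14.5 and 18.4 CPM (log2 difference -2.15), Thbs1, the matricellular protein thrombospondin, at 52.7 against 3.23 and 23.6 CPM (-1.65), and the cardiomyocyte gene Myl2 at 381 against 188 and 82.6 CPM (-1.53). Tmtc1 and the Y-linked genes Ddx3y and Eif2s3y were the other 3 lower calls. The part of the sex of the hearts in these calls was not tested. Among higher genes, the neutrophil genes S100a9 (log2 3.59) and S100a8 (3.23), the haemoglobin gene Hbb-bt (3.10) and the heat shock gene Hspa1b (2.04) rested on 1 library. S100a9 was at 3.52 CPM in sham and at 2.42 and 71.3 CPM in MI replicates 1 and 2, and Hspa1b at 55.6 against 14.5 and 420 CPM. Without MI replicate 2, S100a9, Hbb-bt and Hspa1b had log2 differences of -0.48, -1.16 and -1.92. Between WT P1 MI replicate 1 and WT P1 sham, both processed with Cell Ranger 4.0.0, 13 of the 16 calls kept their sign. For 8 the difference was also at least 2-fold. Both libraries were in the fit, so this is no separate check of the version. Without WT 8 week sham in the fit 3 genes were called.

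Genotype after MI was addressed by setting Mertk KO P1 MI, 1 library of 23 members, against the 2 WT P1 MI libraries in the same fit. The members differed in their markers. Sox17 and Hey1 with neither connexin made up 2 of 23 in the knockout, and 19 of 36 and 157 of 396 in WT P1 MI replicates 1 and 2. The part of this in the calls was not tested. Members of the knockout library had higher neutrophil and venous genes and lower haemoglobin genes, all 4 of which were called. The list of 5 erythroid genes summed to 4.32 CPM there and to 60.5 and 2304 CPM in WT P1 MI replicates 1 and 2. It was as low in the knockout sham, at 2.33 CPM, and at 2392 CPM in the WT P1 sham. Of 9 fibroblast genes tested 6 were lower, which rested on WT P1 MI replicate 2: the list summed to 167 CPM in the knockout and to 165 and 899.7 CPM in replicates 1 and 2. Across all genes, 177 were higher in the knockout (1.83%) and 111 lower (1.15%), or 2.98%, while DESeq2 called 11. Against WT P1 MI replicate 1, processed with the same Cell Ranger version, 282 of the 288 kept their sign. For 277 the difference was also at least 2-fold. Both libraries were in the fit, so this is no separate check of the version. Mertk, the targeted gene, was at 20.2 and 7.32 CPM in the WT P1 MI replicates and at 15.8 CPM in the Mertk KO P1 MI, with 13.4 and 14.0 CPM in the WT and knockout shams. Since 3' counts need not fall in the deleted part, Mertk RNA does not check the genotype.

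Csf3, the granulocyte growth factor, was at 193 CPM in the Mertk KO P1 MI, 1.61 and 2.03 CPM in the WT P1 MI, 0.70 CPM in the WT P1 sham and 0 UMIs in the Mertk KO P1 sham (log2 difference 6.64, approximate SE 0.45). Its UMIs came from 4 of the 23 members, with 52.2% in 1 cell. Plvap was at 323 CPM against 2.42 and 6.54 CPM (log2 5.91), Lrg1, an inducible venular glycoprotein, at 161 against 1.61 and 3.27 CPM (5.81), and Selp, the leukocyte adhesion molecule P-selectin, at 239 against 0 and 5.86 CPM (5.76). Plvap came from 7 members, Lrg1 from 10 and Selp from 5. These genes were not particular to members: endothelial cells without a marker had 378 CPM of Plvap, 311 of Lrg1, 169 of Selp and 199 of Csf3 in the Mertk KO P1 MI, against 2.81 and 55.2, 0 and 28.5, 0 and 51.0, and 0 and 2.49 CPM in the WT P1 MI replicates.

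The chemokine Cxcl2 was at 410.5 against 17.8 and 62.8 CPM (log2 3.28), with 59.7% of its UMIs in 1 cell. Aplnr was at 279 against 122 and 112 CPM (log2 1.33), the adhesive glycoprotein Vwf at 51.9 against 24.2 and 18.7 CPM (1.39), Tmem252 at 122 against 22.6 and 43.5 CPM (1.86), and the glycolytic enzymes Gapdh at 3206 against 1070 and 1060 CPM (1.67) and Tpi1 at 301 against 134 and 147 CPM (1.17). The basement membrane collagen Col15a1 had a log2 difference of 1.19, which became -1.48 with all 4 markers and -0.37 after thinning to 3000 UMIs. With all 4 markers Tmem252 became -6.21 and Cxcl2 -0.23. Of 11 venous genes 4 were higher and none lower.

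Neutrophil RNA moved with this comparison. S100a9 was at 910 CPM in the Mertk KO P1 MI against 2.42 and 71.3 CPM (log2 difference 4.48), S100a8 at 755 against 4.84 and 64.0 CPM (4.31), the granule gene Lcn2 at 292 against 0 and 7.44 CPM (5.74) and the adaptor Tyrobp at 107 against 1.61 and 10.7 CPM (3.76). Wfdc17 (log2 5.58), Slpi (4.99) and Stfa2l1 (4.80) were higher too. The 12 leukocyte genes summed to 1933 CPM in these members and to 31.5 and 226 CPM in the WT P1 MI, and 6 of 9 tested were higher and 1 lower. Of S100a8 UMIs, 61.1% lay in 1 cell, and 21 of 23 members held one. The part of neutrophil RNA in the other calls was not tested. In members without a UMI of Col1a1, Lyz2, Rgs5 or Tnnt2, 25 genes were higher and 25 lower among 3582 tested, and Cxcl2 was at a log2 difference of -1.96.

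Genes lower in the knockout after MI included the interferon regulatory factor gene Irf1, at 76.3 against 387 and 444.5 CPM (log2 difference -2.37), Iigp1, at 21.6 against 207 and 190 CPM (-3.12), Irgm1 (-2.38), Isg15 (-1.77) and the chemokine Cxcl10, at 14.4 against 43.6 and 113 CPM (-2.43). The immediate early regulators Nr4a1, at 50.4 against 216 and 348 CPM (-2.42), and Zfp36, at 92.2 against 382 and 531 CPM (-2.24), were also lower. Of the 21 MHC class I and interferon genes Isg15 was the 1 called. Rasl11a (-3.71) and the translation factor Eif3j1 (-3.43) were lower, and Eif3j1 has a near-identical copy, Eif3j2, to which the counts could have been split differently. The haemoglobin gene Hbb-bs was at 1.44 against 33.9 and 1316 CPM (-8.79). The fibroblast genes Dcn (-2.72), Col1a1 (-2.17) and Col3a1 (-1.70) rested on WT P1 MI replicate 2, and without it they were at 0.63, 0.90 and 0.73. Rgs5 (-1.84) and Tagln (-1.77) were lower mural genes, and Cd74 was at 0 UMIs against 5.65 and 10.6 CPM. The crosslinking enzyme gene Loxl2 had a log2 difference of -2.10.

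Of 29 arterial identity genes 2 were lower and 1 higher, with a median log2 difference of -0.66, beside -0.01 for all genes. Dll4 was at 30.3 CPM against 89.6 and 97.9 CPM (log2 -1.56, adjusted p = 0.031, edgeR), and Eln at 60.5 against 179 and 206 CPM (-1.60, adjusted p = 0.018). Edn1 was at 85.0 against 34.7 and 21.5 CPM (1.75, adjusted p = 9.4e-04). Only 3 of these 23 members held Gja5 UMIs, and 64.3% of the Eln UMIs lay in 1 cell. In 4-marker cells, of which this library had 2, none of 27 was called, where 15 of all 4163 genes were. Cxcl12 was at 691 CPM against 1209 and 1021 CPM (log2 -0.61), Vegfc at 31.7 against 102 and 72.1 CPM (-1.35) and Cxcr4 at 1.44 against 8.88 and 13.4 CPM (-2.94), and none of the 3 passed the test.

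**Figure D5:**
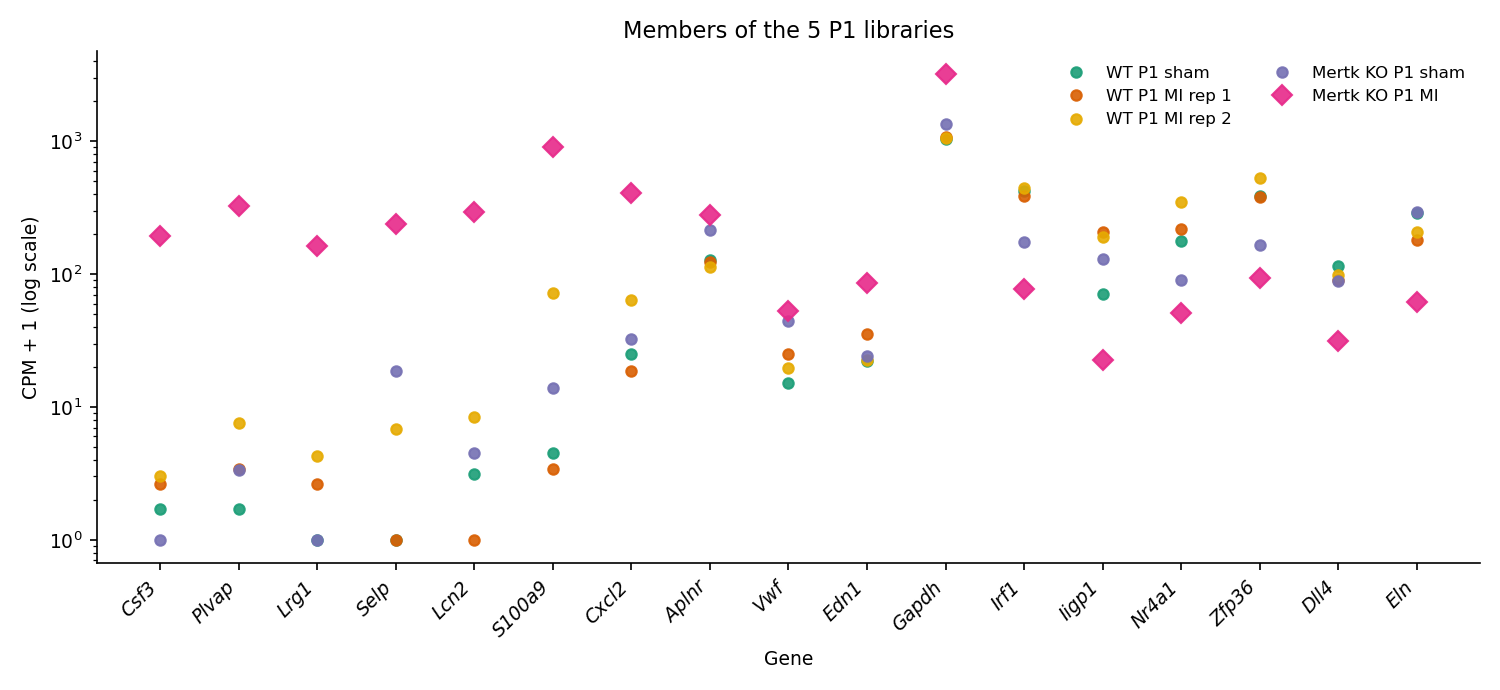
CPM plus 1 (log axis) of 17 genes in the members of the 5 P1 libraries, 1 point per library, with Mertk KO P1 MI as diamonds; points at the bottom are at 0 UMIs. The diamonds lie above the other 4 libraries for Csf3 (193 CPM), Plvap (323 CPM) and S100a9 (910 CPM) and below them for Irf1 (76.3 CPM) and Dll4 (30.3 CPM).

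Whether injury acted differently by genotype was tested as the difference of the MI minus sham differences. For 12 genes it was larger in the knockout (0.124%) and for 4 smaller (0.0414%), 0.166% in all. DESeq2 called 0, with 42 genes at an unadjusted p under 0.05 beside 390 by edgeR. Ifitm1, an interferon-induced membrane protein, went from 10.5 to 277 CPM in the knockout and from 18.3 to 8.07 and 26.5 CPM in WT (log2 difference 4.73). S100a6, a calcium-binding protein, went from 49.0 to 879 CPM and from 88.6 to 60.5 and 258 CPM (3.42). Pdgfa, a growth factor for mural and stromal cells, went from 11.7 to 124 CPM and from 21.8 to 35.5 and 21.5 CPM (3.26). In the opposite direction, Iigp1 went from 130 to 21.6 CPM in the knockout and from 70.3 to 207 and 190 CPM in WT (-3.92), and Cxcl10 from 82.9 to 14.4 CPM and from 41.5 to 43.6 and 113 CPM (-3.35). The Y-linked genes Ddx3y and Eif2s3y and the X-linked RNA Xist were among the 16, and the part of sex was not tested here either.

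Comparisons with 1 library on each side had no replicate and no test. Between the shams, 40 of 3511 genes were at least 2-fold higher in the knockout with exact Poisson 95% intervals apart (1.14%) and 57 lower (1.62%). Odc1, the first enzyme of polyamine synthesis, was at 230 CPM in the knockout and 91.4 CPM in WT, and the DNA repair genes H2afx and Lig1 at 183 against 61.9 CPM and 77.0 against 25.3 CPM. Thbs1 was at 5.84 against 52.7 CPM, Cebpb, a transcription factor of acute responses, at 17.5 against 115 CPM, and the chemokine Cxcl1 at 30.3 against 137 CPM. Gem, Pdlim3 and Eif3j1 were also lower in the knockout sham and Exosc10, Spc24 and Eif3j2 higher. Of 21 arterial identity genes measured none was higher and 1 lower. Between knockout MI and knockout sham, 129 of 3558 genes were higher after MI (3.63%) and 242 lower (6.8%). All 4 leukocyte genes measured were higher and all 7 cardiomyocyte genes lower, with Myl2 at 40.3 CPM after MI and 312 CPM in sham. Of 22 arterial identity genes 2 were higher and 6 lower, among them Eln at 60.5 against 291 CPM. In the knockout sham 98.0% of the Eln UMIs lay in 1 cell. Between the WT shams, 333 of 3785 genes were higher at P1 (8.8%) and 450 lower (11.9%), and of 26 arterial identity genes 1 was higher and 14 lower under the gate of at least 2 markers.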

How the data were processed

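Single-cell 3' RNA libraries of 7 heart preparations were analysed. The authors deposited filtered matrices of raw UMI counts per gene and cell, made with Cell Ranger 4.0.0 or 6.1.0 per the file headers. The submitters' processing notes name the genomes GRCm38 and mm10. Deposited barcodes numbered 44318, of which 40158 passed limits of 500 UMIs, 300 genes and 15% mitochondrial UMIs. Counts of members were summed per library, and cells were not used as replicates. The 11 gate genes stayed in library sizes and out of tests. Sums were tested with edgeR 4.0.16 (TMM scaling, quasi-likelihood test, Benjamini-Hochberg adjustment) in R 4.3.3, and a call needs an adjusted p under 0.05 and at least a 2-fold change. DESeq2 1.42.0 was the alternative. Fits were tested on simulated data. Scrublet through scanpy 1.11.5 scored doublets, which were kept in the main analysis. Where a group had 0 UMIs, a fold is a bound against 3 UMIs over that group. Single libraries were compared by exact Poisson 95% intervals, which cover counting error only. Genes were named from 28 gene lists (at most 4 called members a list) and the 8 largest and 8 smallest calls of at least 50 CPM in a comparison, and every arterial identity gene tested is covered. Some named genes are not reported here. The members and lists were chosen with earlier results of these data known. The gates of all 4 markers and after thinning to 3000 UMIs were added after seeing the data.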

Additional observations from a re-analysis of the deposited data

Results flagged for a closer look

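The change after MI differed between genotypes by a test of the difference itself for 16 genes (edgeR). The log2 differences were 4.73 for Ifitm1, 3.42 for S100a6, 3.26 for Pdgfa, 3.08 for Lmo1, 2.97 for Cxcl2 and 2.63 for Capg, and -3.92 for Iigp1 and -3.35 for Cxcl10. Cxcl2 turned to -7.88 with all 4 markers and to -1.10 without contaminant UMIs, where Iigp1 turned to 4.04, and Cxcl10 turned to 0.38 with 3 of 4 markers. Tyrobp, at 0 UMIs in Mertk KO P1 sham, had an adjusted p of 4.084e-05 (edgeR).

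The age difference differed between members and endothelial cells without a marker for 114 genes (edgeR). Log2 differences of the ratio were 10.68 for Cxcl10, 8.43 for Postn, 6.79 for Cxcl9, 4.87 for Iigp1, 4.78 for Hist1h1b and 4.49 for Prc1. All 6 turned after the gate was applied to cells thinned to 3000 UMIs, to -0.39, -1.42, -1.57, -1.09, -0.81 and -0.25 in that order. In 8 week members Cxcl10 rested on 1 UMI and Postn on 3 UMIs. On the other side they were -7.75 for Xdh, -5.17 for Myl9, -4.00 for Acta2, -3.75 for Igf2, -3.67 for Tpm2, -3.52 for Rgs5, -3.51 for Des and -2.80 for Abcc9. Apln and Noct, at 0 UMIs in 8 week members, had adjusted p values of 0.0004182 and 0.003566 (edgeR).

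The 5 members of WT 8 week MI, used in no comparison, held several genes above the WT 8 week sham members. Apln was at 761 CPM (exact Poisson 95% interval 492 to 1123 CPM) and at 0 UMIs in sham. Eno1 was at 974 CPM, Lyz2 at 730.4, Col15a1 at 700.0, Fosb at 639, Esm1 at 426 and Angpt2 at 304 CPM. These genes were picked after their values were seen, from 5 cells of 1 library, and Lyz2 is a myeloid gene.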

How the results depend on the processing

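No paired analysis was possible because only WT P1 MI carries replicate numbers. Over the named genes, 2634 values kept direction and call, 390 lost the call, 17 gained it and 46 reversed. Another 47, from fits without a WT P1 MI library that leave no test, moved by more than the spread between the WT P1 MI libraries, 26 of them for genotype without replicate 2. The cause was not tested, except that stricter gates test fewer genes (4163 with all 4 markers, 1219 after thinning, 3582 without contaminant UMIs, against 9651). DESeq2 called 0 genes for injury (9 at an unadjusted p under 0.05; edgeR 269), 11 for genotype, 0 for the interaction (42; edgeR 390), 274 for age and 5 for class by age. At least 3 of 4 markers gave 25 for injury, 9 for the interaction, 310 for age, 41 for class by age and 205 for members against other cells. Removing the highest doublet scores gave 60 for class by age, and the additive fit 126 for genotype. Members without Col1a1, Lyz2, Rgs5 or Tnnt2 UMIs gave 50 for genotype, 4 for the interaction, 61 for age, 7 for class by age, 165 for members against other cells, 193 for knockout MI against sham and 234 for WT P1 against 8 week sham. All 4 markers gave 15, 8, 77, 36, 438, 44 and 261 in that order. Thinning to 3000 UMIs gave 19, 0 (43 at an unadjusted p under 0.05), 42, 11, 256, 33 and 119, with 5 for injury and 19 between the shams. Leaving out 1 library gave 3 to 17 for injury (3 without WT 8 week sham), 205 to 292 for genotype, 12 for the interaction in the 1 fit possible, without WT 8 week sham, 473 to 887 for age and 78 to 144 for class by age.

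Shares of endothelial cells thinned to 1500 UMIs came to 4.95% for the WT P1 sham, 5.46% and 5.09% for the WT P1 MI libraries, 5.73% and 4.95% in Mertk KO sham and MI, and 6.05% and 6.25% in WT 8 week sham and MI. At the depth sequenced, without thinning, the shares with at least 3 markers were 11.3%, 10.9%, 10.02%, 9.43%, 13.1%, 3.56% and 3.70% in that order.

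Reversed log2 values with all 4 markers were Cxcl2 -0.23, Col15a1 -1.48 and Tmem252 -6.21 for genotype, Cxcl2 -7.88 for the interaction, Acta2 0.32, Trpv4 0.20 and Jag1 1.17 for age, and Hist1h1b -2.19, Cxcl9 -1.64, Apln -0.96 and Stmn2 0.51 for class by age. With 3 of 4 markers Cxcl10 was 0.38 for the interaction. After thinning they were Col15a1 -0.37 for genotype, Vwf 0.90, Jag1 0.92 and Fbln5 0.32 for age, and Prc1 -0.25, Hist1h1b -0.81, Iigp1 -1.09, Cxcl9 -1.57, Postn -1.42, Cxcl10 -0.39, Stmn2 0.20 and Fbln2 0.97 for class by age. Without doublet scores Dcn was 0.056 for genotype and Abcc9 6.96 for class by age. Without contaminant UMIs they were Cxcl2 -1.96 for genotype, Cxcl2 -1.10 and Iigp1 4.04 for the interaction, Aplnr -0.68, Vwf 0.45, Jag1 0.54, Stmn2 0.024, Fbln5 0.41 and Mgp 0.54 for age, and Prc1 -0.94, Hist1h1b -1.71, Abcc9 4.62 and Fbln2 2.13 for class by age. Without WT P1 MI replicate 2 they were Hspa1b -1.92, S100a9 -0.48 and Hbb-bt -1.16 for injury, and Dcn 0.63, Col1a1 0.90 and Col3a1 0.73 for genotype. Without WT P1 sham Cd74 was 0.82 for age, a fitted value, while Cd74 in every P1 library was below that of WT 8 week sham. Over the fits that leave out 1 library these ranged from -1.92 to 2.95 for Hspa1b, -0.48 to 4.302 for S100a9 and -1.16 to 3.96 for Hbb-bt, from -3.51 to 0.63 for Dcn, -2.90 to 0.90 for Col1a1 and -2.48 to 0.73 for Col3a1, and from -6.10 to 0.82 for Cd74.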
